A study of Mus musculus with 10 samples.

Results

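The markers described here are 10 genes used to tell apart classes of spinal motor neurons, taken by symbol from the 25232 genes of the deposited table, in which all 10 had a row. *Chodl*, *Mmp9*, *Calca* and *Calcb* stand for the fast motor neurons that are lost first in amyotrophic lateral sclerosis (ALS), and *Sv2a*, *Esrrb*, *Esrrg*, *Gfra1*, *Htr1d* and *Htr1f* for slow and gamma motor neurons. The genes were selected on their symbols, from a list drawn up with the fold changes and p-values of the authors' own genotype comparison of these libraries known. The series holds RNA-seq libraries of the spinal cord from 5 wild type (WT) and 5 SOD1 G93A female mice, all 90 days old, of the strain labelled C57BL/6 (a C57BL/6J background in the methods), and the methods name the lumbar part of the cord. The SOD1 G93A strain carries many copies of a human *SOD1* transgene with a mutation of familial ALS, and the WT mice were littermates without it. The deposited table gives 1 level for each gene, the authors' mean of normalised counts over all 10 libraries, WT and SOD1 G93A together. The other values of the table are the outcome of the authors' own comparison of the genotypes and were not used here, so that the text describes how abundant each marker was in this pooled tissue and gives no difference between genotypes, no spread between mice and no test. In bulk tissue, fewer cells of a type and less RNA per cell cannot be told apart.

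Motor neurons of the ventral horn fall into alpha motor neurons, which drive the force-producing muscle fibres, and gamma motor neurons, which set the tension of muscle spindles. Alpha motor neurons are divided further by the muscle fibres they contact, and those of fast fatigable units degenerate before those of slow units and before gamma motor neurons in ALS and its mouse models. The markers of these classes are not restricted to motor neurons, since synaptic vesicle proteins, neuropeptides and receptors serve many other cells of the cord as well.

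*Calca* and *Calcb* encode calcitonin gene-related peptide (CGRP) in its alpha and beta forms, neuropeptides of motor and sensory nerve endings. On the GRCm38 build, which mm10 denotes, *Calca* lies on the minus strand of chr7:114631478-114636357 and *Calcb* on the plus strand of chr7:114718643-114723365, 82.3 kb apart. Their coding sequences, read from the longest coding transcript of each gene in GENCODE M21, were identical at 325 of 393 alignment columns (82.7%). This value depended on the transcripts compared, since it was 59.0% between those with the longest coding sequences. The *Calca* transcript of that pair was a different splice form, without the shared run given below. The choice between both pairs was made after the values were seen. The longest run without a difference in the longest transcripts was 60 bases, against 61 over all pairs of coding transcripts. The run is shorter than the reads of 100 bases, so only a shortened read could fall wholly inside it and fail to tell the genes apart. It crosses an exon junction inside the coding sequence of both genes. In the sequences below the shared run is in capitals and 30 coding bases on either side are in lower case, 5′ to 3′ on the coding strand, from chr7:114632511-114634498 for *Calca* and chr7:114720184-114722063 for *Calcb* with the intron left out.
Calca: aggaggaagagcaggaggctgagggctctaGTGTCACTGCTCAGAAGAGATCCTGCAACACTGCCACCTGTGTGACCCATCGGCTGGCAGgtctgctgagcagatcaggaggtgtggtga
Calcb: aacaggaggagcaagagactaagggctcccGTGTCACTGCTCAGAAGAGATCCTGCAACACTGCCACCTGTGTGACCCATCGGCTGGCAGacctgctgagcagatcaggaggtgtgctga

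The reads were 100 bases long, and only reads with a single place in the genome were counted. Of the 1676 different stretches of 100 bases in the annotated *Calca* transcripts and the 1260 in those of *Calcb*, 0 were found in the transcripts of any other gene on either strand. The same count was 0 for 7 further members. *Gfra1* was the exception, with 320 of 5614 stretches (5.70%) also present in the antisense gene *Gm16277*, which overlaps 416 of its exonic bases on the opposite strand. The libraries were stranded, and the strand setting of the counting is not given in the sources used here, so the share of the *Gfra1* level that came from *Gm16277* was not tested. The run shared by *Calca* and *Calcb* was present in 1 of 6 coding transcripts of *Calca*. *Calca* makes calcitonin or CGRP by splicing to different last exons, and a level counted over the whole gene does not separate them.

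Levels between genes were compared per length, as the authors' mean normalised count per kb of exon, with overlapping exons of all transcripts counted once. The 10 markers ran from 9.08 to 2579.7 on this scale, a span of 284 times, where the median of 20403 genes with a mean above 0 was 63.4. *Sv2a* alone held 64.3% of the summed level per kb of the 10 markers. The order from the top was *Sv2a*, *Gfra1*, *Calca*, *Esrrg*, *Calcb*, *Chodl*, *Mmp9*, *Esrrb*, *Htr1d* and *Htr1f*. The authors' mean has no error between mice attached, so the order was checked against the length used and against no division by length. *Gfra1* and *Calca* changed places with the longest transcript as length (ratio 0.73 to 1.05 over 3 lengths), *Calcb* and *Chodl* did so with both of the other lengths (0.80 to 1.33), and the other 7 pairs of neighbours kept their order under all 3 lengths. Without division by length, 5 of the 10 markers held another position. *Esrrg* then stood above *Calca* (2045 against 605), *Chodl* above *Calcb* (483 against 148) and *Esrrb* above *Mmp9* (317 against 270.2), and *Calcb* moved from number 5 to number 8.

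**Figure D1:**
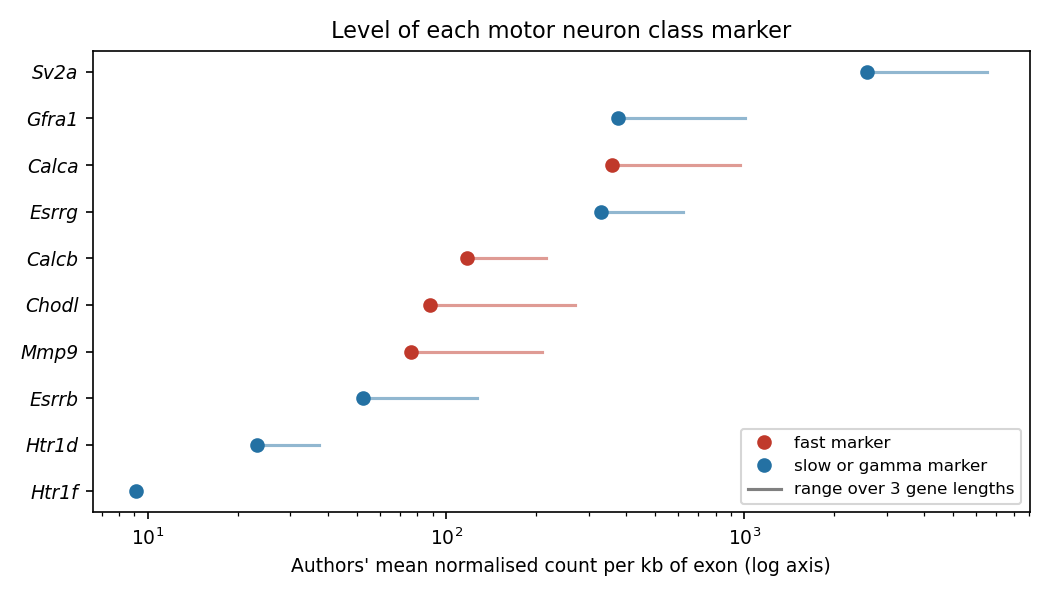
The plot gives the authors' mean normalised count per kb of exon (log axis) of each marker over all 10 libraries, with red points for fast and blue points for slow or gamma markers; a point uses the union of exons and its line spans the values with 3 measures of gene length. *Sv2a* stands at 2579.7, *Htr1f* at 9.08, and the 4 fast markers between 76.4 and 359, inside the range of the slow and gamma markers.

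The fast markers covered a narrow range and the slow and gamma markers a wide one that enclosed it. The 4 fast markers lay between 76.4 and 359 per kb, with a median of 102. The 6 slow and gamma markers lay between 9.08 and 2579.7 per kb, with a median of 191. That median falls between *Esrrb* and *Esrrg*, and leaving out 1 gene moved it to between 52.4 and 329, so the levels set no order between both classes. Among all 20403 genes the fast markers sat between percentile 53.3 and percentile 84.5, and the slow and gamma markers between percentile 27.6 and percentile 98.8.

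**Figure D2:**
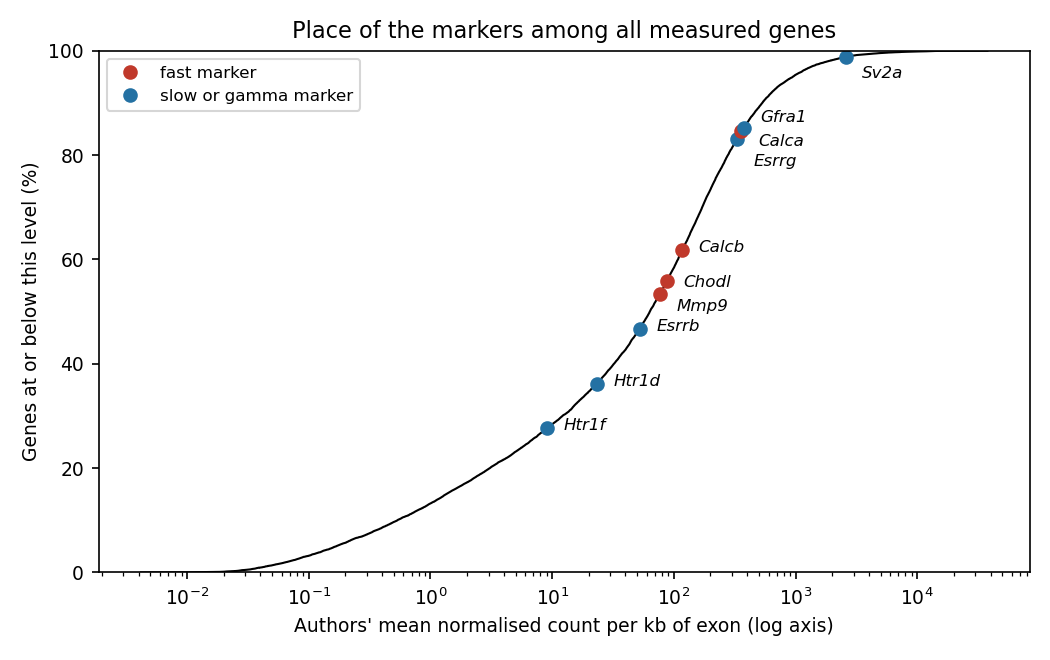
The curve gives the percent of 20403 genes at or below each level, as the authors' mean normalised count per kb of exon (log axis), and the points mark the fast (red) and slow or gamma (blue) markers on it. The fast markers sit between percentile 53.3 and percentile 84.5, *Sv2a* at percentile 98.8 and the serotonin receptor genes at percentile 36.1 and percentile 27.6.

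Among the fast markers, *Chodl* encodes chondrolectin, a membrane protein with a C-type lectin domain. The gene lies on the plus strand of chr16:78930948-78951733 and had a mean normalised count of 483 in the authors' table, or 88.0 per kb. This placed it at percentile 55.9, in the middle of the measured genes. Its exons sum to 5491 bases over 5 transcripts while the longest transcript has 2535 bases, so that its level per kb was 191 with the longest transcript as length, the strongest effect of that choice on any of the 10 markers. The level per kb of *Chodl* was 56.3% of that of *Chat* (38.2% to 74.1% over the 3 lengths), the choline acetyltransferase gene of cholinergic neurons. *Layn*, the gene of the related lectin layilin, had 73.7 per kb, and *Chodl* was 1.19 to 1.92 times as high over the 3 lengths.

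*Mmp9* encodes a secreted gelatinase that cuts components of the extracellular matrix, and it is known as a marker of vulnerable fast motor neurons. It lies on the plus strand of chr2:164940780-164955850, with a mean normalised count of 270.2 in the authors' table, 76.4 per kb and percentile 53.3. The gelatinase gene *Mmp2* stood lower, at 47.1 per kb, and *Mmp14*, the gene of a membrane-bound protease, higher, at 101. The genes of the tissue inhibitors of metalloproteinases ranged from 57.5 per kb for *Timp1* to 2668 for *Timp2*, and *Timp2* was 22.5 to 34.9 times as high as *Mmp9* over the 3 lengths. *Lcn2*, whose product binds MMP9, had 10.8 per kb. *Mmp3* was close to 0, with a mean normalised count of 0.0918. Because neutrophils carry MMP9 too, 6 neutrophil markers were read from the same table. All 6 were above 0 and 4 had a mean normalised count of at least 10. Their mean normalised counts summed to 147.5, and per kb they ran from 0.616 for the neutrophil surface marker *Ly6g* to 118 for *S100a9*. *Mmp9* was 0.65 to 1.75 times as high as *S100a9* per kb over the 3 lengths, so which of them stood higher depended on the length. The part of neutrophils in the *Mmp9* level was not tested.

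*Calca* had a mean normalised count of 605 in the authors' table and *Calcb* one of 148. Per kb the levels were 359 and 117, at percentile 84.5 and percentile 61.8. *Calca* exceeded *Calcb* by 3.07 times with the union of exons and by up to 4.47 times with the other lengths. *Calca* was also above *Chat*, by 1.36 to 2.37 times per kb, while *Calcb* reached 30.5% to 74.8% of *Chat* over the 3 lengths. Without division by length *Calca* was at 0.82 times *Chat*. Of the genes for the CGRP receptor, the receptor chain *Calcrl* had 59.4 per kb, its accessory chain *Ramp1* had 489 and the receptor component *Crcp* had 305. *Ramp2* and *Ramp3*, which turn the same receptor chain towards adrenomedullin, had 87.0 and 38.0 per kb. The family's other peptides were low, with *Adm* at 41.3, *Adm2* at 1.97 and *Iapp*, the amylin gene, listed at 0. CGRP is abundant in sensory neurons as well, and the 5 sensory neuron markers had mean normalised counts that summed to 288, with 3 of the 5 at 10 or more, and per kb they ran from 2.80 for *Mrgprd* to 40.5 for *P2rx3*. The part of nerve roots or ganglia in the *Calca* and *Calcb* levels was not tested.

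Among the slow and gamma markers, *Sv2a* encodes a glycoprotein of synaptic vesicles that marks the endings of slow motor neurons on muscle and is present at synapses throughout the central nervous system. It lies on the plus strand of chr3:96181151-96195521. Its mean normalised count was 11959.6 in the authors' table, or 2579.7 per kb, which is number 247 from the top of 20403 genes. *Sv2a* was 9.20 to 16.5 times as high as *Chat* per kb over the 3 lengths and, with the union of exons, 6.84 times as high as *Gfra1*, the next marker. Its relatives *Sv2b* and *Sv2c* had 429 and 505 per kb, and *Sv2a* was above each of them by 4.24 times or more under all 3 lengths. *Syt1*, the vesicle calcium sensor whose protein SV2 proteins bind, had 630 per kb. *Snap25*, a gene of presynaptic endings in general, stood higher still, at 8695 per kb.

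*Esrrg* and *Esrrb* encode orphan nuclear receptors of the estrogen-related receptor (ERR) family, which control genes of energy metabolism, and both are used as markers of gamma or slow motor neurons. *Esrrg* lies on the plus strand of chr1:187608791-188214885 and *Esrrb* on the plus strand of chr12:86361117-86521628. Their mean normalised counts in the authors' table were 2045 and 317. Per kb *Esrrg* had 329, at percentile 83.1, and *Esrrb* had 52.4, at percentile 46.7, a ratio of 4.92 to 6.29 over the 3 lengths. The third family gene, *Esrra*, which is expressed in many tissues, had 323 per kb, and its order against *Esrrg* depended on the length (0.57 to 1.02 for *Esrrg* over *Esrra*). The coactivator genes *Ppargc1a* and *Ppargc1b* had 218 and 183 per kb, and the corepressor gene *Nrip1* had 67.0. The coding sequences of *Esrrb* and *Esrrg* were identical at 72.0% of alignment columns, and their longest run without a difference was 17 bases.

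*Gfra1* encodes the receptor that holds glial cell line-derived neurotrophic factor (GDNF) at the cell surface and signals through the kinase RET, and its level marks gamma motor neurons in adult cord. It lies on the minus strand of chr19:58235604-58455909, with a mean normalised count of 2065 in the authors' table, 377 per kb and percentile 85.2. *Ret* had 543 per kb, and which of *Ret* and *Gfra1* stood higher depended on the length (0.73 to 1.51 for *Ret* over *Gfra1*). *Gfra1* was the most abundant of the 4 co-receptor genes under each length, since *Gfra4* had 202 per kb, *Gfra2* had 166 and *Gfra3* had 4.07. The ligand genes were low in the same tissue, with *Gdnf* at 1.58 per kb, *Artn* at 5.65, *Nrtn* at 21.9 and *Pspn* at 24.8. *Ncam1*, an adhesion molecule gene whose protein can also serve as a GDNF receptor, had 1223 per kb.

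*Htr1d* and *Htr1f* encode serotonin receptors that couple to inhibitory G proteins, and serotonin reaches motor neurons from the raphe nuclei of the brainstem. *Htr1d* lies on the plus strand of chr4:136423524-136444398 and *Htr1f* on the minus strand of chr16:64924729-65105854. They were the least abundant of the 10 markers, with mean normalised counts of 74.2 and 23.4 in the authors' table. Per kb *Htr1d* had 23.2 and *Htr1f* 9.08, at percentile 36.1 and percentile 27.6. Among 13 serotonin receptor genes they were number 9 and number 12 per kb, and *Htr2b*, at 1.08, was the one below *Htr1f*. With the mean transcript length *Htr4* stood above *Htr1d*, at 46.1 against 37.4. *Htr2c* led the family at 269 per kb, 11.6 to 21.6 times the level of *Htr1d*, and *Htr7* followed at 176. The related inhibitory receptor genes *Htr1a* and *Htr1b* had 85.2 and 79.2 per kb, above *Htr1d* by 2.28 times or more under each length. The coding sequences of *Htr1d* and *Htr1f* were identical at 56.5% of alignment columns, with a longest common run of 14 bases.

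**Figure D3:**
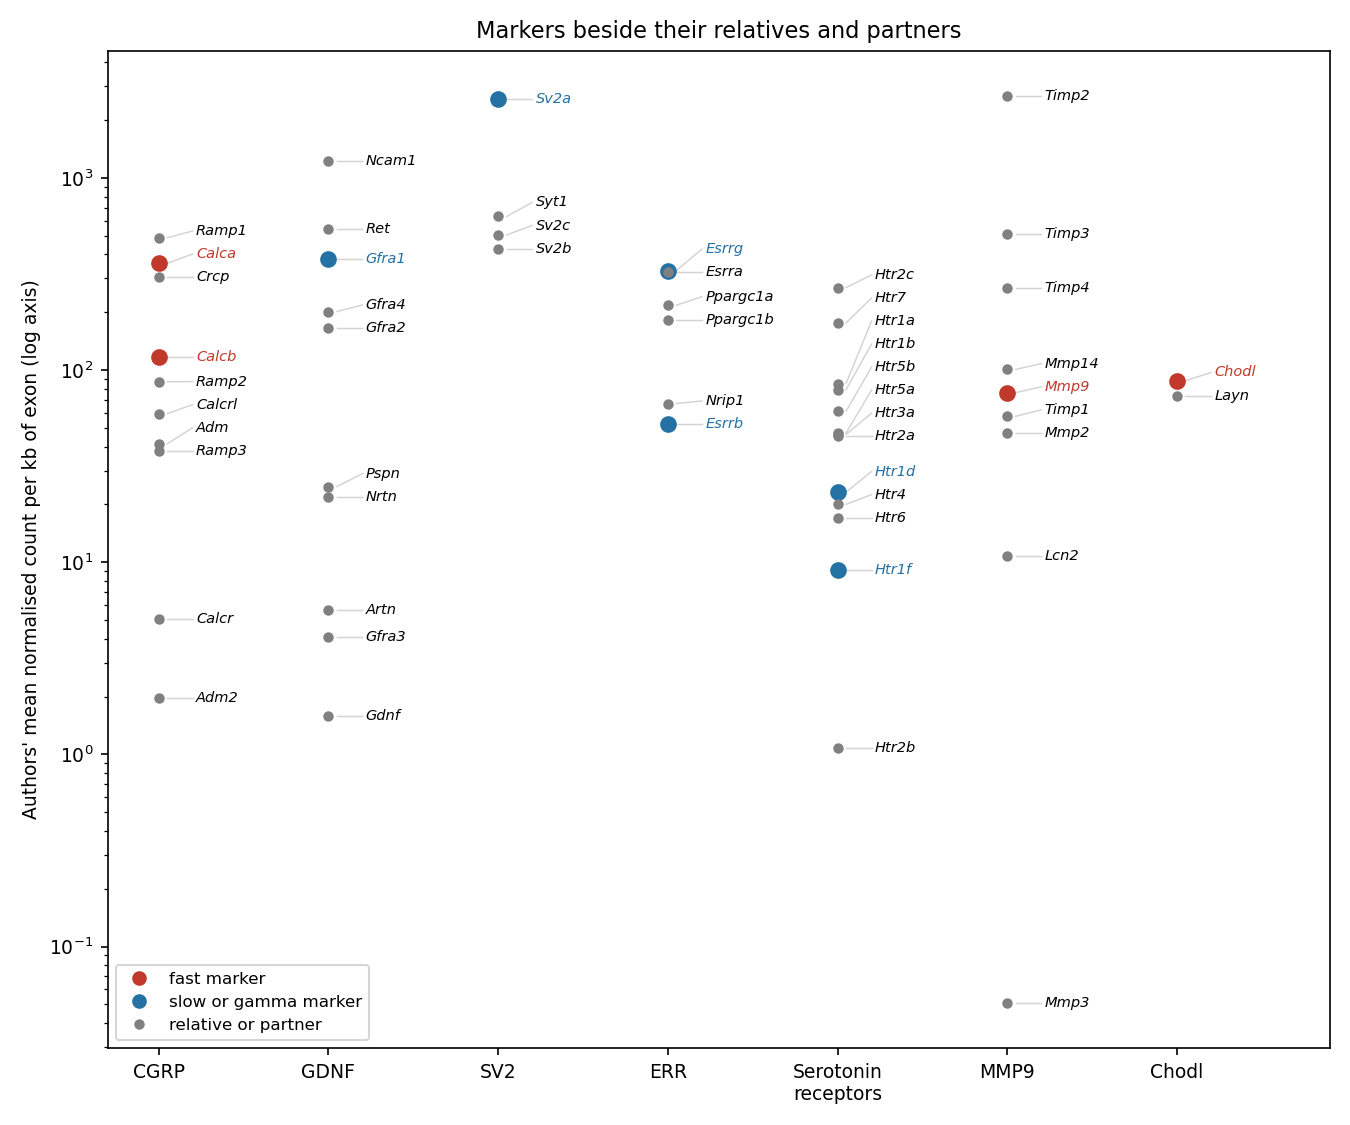
Each column shows 1 gene family or signalling group, with the authors' mean normalised count per kb of exon on a log axis; large red points are fast markers, large blue points slow or gamma markers and small grey points their relatives and partners, and *Iapp*, listed at 0, is left out. *Sv2a* is above the other genes of its column, *Gfra1* above the other GFRA co-receptor genes, and *Htr1d* and *Htr1f* sit low among the serotonin receptors.

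Other motor neuron genes gave the scale for these values. The 7 genes of motor neuron identity ranged from 11.5 per kb for *Isl1*, a homeobox gene that is higher in development, to 712 for *Prph*, the gene of the intermediate filament peripherin, with a median of 156. The cholinergic genes *Slc18a3* and *Slc5a7*, for the transporters of acetylcholine and choline, had 485 and 410 per kb, against 156 for *Chat*. *Slc18a3* (chr14:32462438-32464850) lies within the span of *Chat* (chr14:32408203-32465989), and the effect of this on the *Chat* level was not tested. *Mnx1* and *Isl2* had 16.6 and 21.4 per kb. With the union of exons as length, *Htr1d* lay slightly above these homeobox genes, and *Htr1f* was under all 7 genes. The other lengths were not compared for these small gaps. Without division by length, *Htr1d* (74.2) was above *Isl2* (47.0), and *Htr1f* (23.4) was under *Mnx1* (37.3). Of 10 other genes used for motor neuron classes, *Spp1* (osteopontin, in alpha motor neurons but also in activated microglia) was highest at 2002 per kb and *Pard3b* lowest at 10.6, with a median of 67.3. *Rbfox3*, which encodes the nuclear antigen NeuN that is strong in alpha and weak in gamma motor neurons, had 601 per kb. The kinase gene *Prkcd* had 112, the potassium channel gene *Kcnq5* had 45.8 and the Wnt ligand gene *Wnt7a* had 104.

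The tissue label was read against marker genes in the same table. Genes of oligodendrocytes led, with *Mbp* at 37739.5 per kb, the highest level of all 20403 genes, and *Gfap* of astrocytes had 13345. The 3 Hox genes of the lumbar cord were all detected, at 72.0 for *Hoxa10*, 256 for *Hoxc10* and 83.6 for *Hoxd10*. Of forebrain genes, *Emx1* had a mean normalised count of 0.993 and *Neurod6* one of 78.9. Skeletal muscle genes were present as well, with *Acta1* at 163 per kb, and their source was not tested.

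The base composition of the promoters ranged widely. RefSeq windows of 300 bases around the start site on GRCm38.p6 were matched for 8 of the 10 genes, 13 windows in all, and not for *Calcb* and *Mmp9*. Their content of G and C ran from 44.7% in 1 window of *Esrrg* to 74.3% in 1 window of *Htr1d*, around a median of 52.7% over 32841 windows of all genes. The ratio of observed to expected CpG was lowest in an *Esrrb* window, 0.266, and highest in an *Esrrg* window, 1.07, where the median of all windows was 0.384. The 4 windows of *Esrrg* ran from percentile 71.5 to percentile 97.1 for this ratio, and the single window of *Chodl* was at percentile 43.3.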

How the data were processed

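RNA of the spinal cord of 5 WT and 5 SOD1 G93A mice was sequenced. Groups were taken from the sample titles. According to the methods, the authors filtered reads with Fastp, aligned them to mm10 with HISAT2 (2.1.0 per the labels), assigned reads with 1 place in the genome to genes by featureCounts (2.0.2 per the labels) and ran DESeq2. The annotation and the strand setting are not given in the sources used here. The authors deposited 1 table. Its base mean, a signal that the authors averaged over all libraries from counts divided by size factors, was used as deposited and is printed as the authors' mean. The table's 5 other value columns hold the authors' log2 fold change, standard error, Wald statistic, p-value and adjusted p-value and were not used, so no comparison of genotypes was made. No depth per library and no counting interval could be given; the base means sum to 22158933 normalised counts.

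Levels were divided by the union of exon lengths in GENCODE M21 (GRCm38), which matched 24363 of 25232 symbols and 98.95% of the summed mean, and 4259 genes were listed at 0. Percentiles are over the 20403 genes with a length and a mean above 0. Coding sequences were aligned globally in Biopython. They replaced a planned protein comparison, because protein sequences were not used here. Members and lists were chosen with earlier results of these data known. All 10 members are named. Genes of the other lists were to be named when highest or lowest in their list, and the others named, and the pairs of genes set against each other as ratios, were chosen after their values were seen. The steps that measure exon length and percentile were tested on simulated data, and the alignments and sequence searches were not. Software was Biopython 1.88, pandas 2.3.3, numpy 2.4.6 and matplotlib 3.10.9 under Python 3.11.15.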

Additional observations from a re-analysis of the deposited data

How the results depend on the processing

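No paired analysis was possible because no value of a single library was used, and for the same reason no library could be left out. With no spread between libraries to set a limit, a level was taken as moved when it changed by over 1.5 times and a percentile or identity when it changed by over 10 points, and these limits are arbitrary. With the longest transcript as length, the level per kb rose to 191 for *Chodl* and 609 for *Calca*, and the median of the fast markers to 172, while 9 of 12 values stayed within the limit. With the mean transcript length, which counts short fragments, the levels were 271 for *Chodl*, 209 for *Mmp9*, 965 for *Calca*, 216 for *Calcb*, 6516 for *Sv2a*, 126 for *Esrrb*, 621 for *Esrrg*, 1005 for *Gfra1* and 37.4 for *Htr1d*, with medians of 243 for the fast and 374 for the slow and gamma markers. The median of the slow and gamma markers was 52.4 without *Sv2a*, *Esrrg* or *Gfra1* and 329 without *Esrrb*, *Htr1d* or *Htr1f*, so it falls under or above the fast median of 102 with the choice of genes. The fast median stayed between 88.0 and 117 when 1 gene was left out.

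Among genes with a mean of at least 10, the percentiles were 42.5 for *Chodl*, 39.2 for *Mmp9*, 50.2 for *Calcb*, 30.9 for *Esrrb*, 17.8 for *Htr1d* and 7.66 for *Htr1f*. With genes at 0 included, they were 46.5 for *Htr1d* and 39.4 for *Htr1f*. Without division by length they were 64.5 for *Calca* and 43.0 for *Calcb*, and 5 of the 10 markers changed position in the order of levels. The planned protein comparison was not run. The identity of the coding sequences of *Calca* and *Calcb* was 59.0% between the transcripts with the longest coding sequences, which were compared first. That pair held a *Calca* splice form without the run shared with *Calcb*. Identity was 82.7% between the longest transcripts, which were taken after the value of 59.0% had been seen. For *Esrrb* and *Esrrg* the choice gave 71.9% against 72.0%. Identity over the shorter coding sequence, an alternative chosen after seeing the data, was 84.6% for *Calca* and *Calcb*, 73.0% for *Esrrb* and *Esrrg* and 59.5% for *Htr1d* and *Htr1f*.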
